A study of Mus musculus with 10 samples.

Results

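Genes of primary cilium transport and of the ciliary transition zone were followed from mouse ureteric bud (UB) organoids to collecting duct (CD) organoids and adult CD cells. The members were chosen by name from the deposited RNA-seq table, as rows of the type protein_coding for the numbered Ift and Bbs genes, Tctn1 to Tctn3, B9d1 and B9d2, together with Mks1, Cc2d2a, Nphp4, Rpgrip1l, Arl13b, Arl6, Kif3a, Kif3b, Dync2h1, Dync2li1, Wdr19 and Wdr35. This choice used no expression value, but it was made with earlier results of these data known. It gave 35 of the 39273 genes in the table. Ift43, Ift46, Tctn2 and Bbs10 carry matching names but another type in the table, so these 4 genes were not members and are described apart. UB organoids were grown from the ureteric bud of E11.5 embryos of a C57BL/6 x Swiss Webster background that carry Wnt11-RFP +/-, a reporter of the UB tip, and were collected after 5, 10 and 20 days of culture (D5, D10 and D20). CD organoids were D10 UB organoids moved for 7 days into a differentiation medium with FGF9, the ROCK inhibitor Y27632, the Notch pathway inhibitor DAPT, the MEK inhibitor PD0325901, aldosterone and vasopressin. The adult CD libraries are described by the study as sorted Hoxb7-Venus cells from mice of about 2 months, whereas their sample labels repeat the embryonic age, the Wnt11-RFP genotype and the word organoid. Each of the 5 groups held 2 libraries, and no label says that these came from separate animals, so the p-values measure only the spread between these libraries.

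The primary cilium is an antenna of microtubules on the apical face of most kidney epithelial cells, where it carries receptors and channels such as the polycystins. It is built by intraflagellar transport (IFT): kinesin-II carries IFT-B trains with their cargo to the tip, and the dynein-2 motor with IFT-A brings them back. The BBSome, a coat loaded by the small GTPase Arl6, takes membrane proteins out of the cilium, and the transition zone at its base, built from MKS and NPHP proteins, decides which proteins pass. Mutations in these genes cause cystic kidney disease, nephronophthisis, Joubert, Meckel and Bardet-Biedl syndromes.

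By role, the members were 10 IFT-B genes (Ift20, Ift22, Ift27, Ift52, Ift57, Ift74, Ift80, Ift81, Ift88 and Ift172), 4 IFT-A genes (Ift122, Ift140, Wdr19 and Wdr35), 4 motor genes (Kif3a and Kif3b of kinesin-II, Dync2h1 and Dync2li1 of dynein-2), 8 genes of the BBSome and its assembly (Bbs1, Bbs2, Bbs4, Bbs5, Bbs7, Bbs9, Bbs12 and Arl6), 6 genes of the MKS module (Mks1, B9d1, B9d2, Tctn1, Tctn3 and Cc2d2a), 2 of the NPHP module (Nphp4 and Rpgrip1l) and Arl13b, a GTPase of the ciliary membrane. All 35 passed the filter on low counts. Their lowest count in any library was 22, for Bbs12 in adult CD cells.

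Ciliary genes are known targets of the RFX transcription factors, which bind the X-box, an imperfect inverted repeat close to the start site. RefSeq promoter windows (GRCm38.p6, 250 bases before to 50 after the start site) existed for 31 members. No window was held for Dync2li1, Ift122, Ift80 and Ift81. In all, 9 spellings were searched on both strands, and the share of all 27025 genes with a window that held each spelling is given as the comparison. The strict X-box, spelled GTTNCC and GGNAAC with 2 free bases between them and 14 bases long, occurred in 3 members (9.68% against 0.529% of all genes). The loose X-box, with GTNNCC as its left arm and otherwise the same, includes every strict match and occurred in 8 members, Bbs1, Bbs4, Bbs7, Ift22, Ift57, Mks1, Nphp4 and Tctn1 (25.8% against 1.49%). With the first base of the right arm also set free, the strict form occurred in 12.9% of the members against 0.936%, and the loose form in 29% against 2.49%. The short core GTTGCC, part of many of these sites, occurred in 18 members (58.1% against 14.1%) and GTTGCCA in 29% against 5.02%. GTTGCCAT and GTTNCCAT were in 0 members, against 1.54% and 5.12% of all genes, and CCAAT, a common promoter box, was in 64.5% against 41.1%. The windows below are shown because they hold the 3 members with the strict X-box (Bbs7, Mks1 and Tctn1) and, with the loose X-box, Ift57 and Nphp4, the former the second lowest member against adult cells and the latter the lowest against D10 UB organoids. Each is written on the strand of the gene, with the matched bases in capitals. In Ift57 the match lies on the opposite strand, so its capitals show the reverse complement of the loose spelling. The windows of Bbs1, Bbs4 and Ift22 are not shown. From D10 UB to CD organoids, Bbs1, Bbs7, Ift57, Nphp4 and Tctn1 were lower, and Bbs4, Ift22 and Mks1 were not. The median log2 fold change was -0.30 with the strict X-box and -0.32 without it. For the loose X-box it was -0.38 and -0.29. A match describes the letters and not a bound site.
Bbs7, chr3:36613489-36613518 (-): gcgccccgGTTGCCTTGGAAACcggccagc
Ift57, chr16:49699199-49699228 (+): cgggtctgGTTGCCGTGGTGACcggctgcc
Mks1, chr11:87853183-87853212 (+): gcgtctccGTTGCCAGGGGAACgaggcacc
Nphp4, chr4:152477903-152477932 (+): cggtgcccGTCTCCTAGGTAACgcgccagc
Tctn1, chr5:122264411-122264432 (-): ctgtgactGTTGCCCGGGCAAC

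Rpgrip1l, the member with the largest change in these data, held none of the 4 X-box forms in its window. It lies at chr8:91217030-91313262 on the minus strand of GRCm38 and starts head to head with Fto, an RNA demethylase gene on the other strand, with 302 bases between the RefSeq start sites. The 210 bases upstream of its outermost annotated start, 58.1% of them G or C, are printed because they lie between the start sites of both genes. They are written on the strand of Rpgrip1l, with no base in capitals. Counts per gene do not measure the use of this stretch.
Rpgrip1l, chr8:91313263-91313472 (-): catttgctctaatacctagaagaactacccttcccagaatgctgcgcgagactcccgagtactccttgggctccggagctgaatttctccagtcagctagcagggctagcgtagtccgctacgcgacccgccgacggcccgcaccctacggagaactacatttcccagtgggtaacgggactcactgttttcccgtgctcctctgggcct

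Library totals were 11913613 to 24536676 counts, with the D5 and D10 libraries at 22858971 or more and the others at 16759872 or fewer. Levels are given as CPM, the counts relative to the library total after TMM scaling, which limits the effect of a few very abundant genes. Marker genes followed the labels in part. The summed level of 15 intercalated cell genes was 14.8 to 83.4 CPM in UB organoids, 2510.3 and 2611 CPM in CD organoids and 5824 and 5986 CPM in adult cells. That of 12 principal cell genes was 403 to 821 CPM, 4185 and 4524 CPM, and 14116 and 14622 CPM in the same order. Of these 12 genes, 10 were lower (83.3%) and 2 higher (16.7%) in CD organoids than in adult cells, beside 26.1% and 23.8% of all genes. The sum of 12 cell cycle genes fell from 2874 and 3249 CPM at D5 to 311 and 336 CPM in CD organoids. The adult libraries also held 8 proximal tubule genes at a sum of 5642 and 6793 CPM (35.3 CPM or less elsewhere), 6 endothelial genes at 771 and 776 CPM (2.89 CPM or less elsewhere) and 5 genes of the loop of Henle at 3543 and 3754 CPM (11.9 CPM or less elsewhere). Between D10 and CD organoids, 7 stromal genes went from a sum of 26.1 and 19.4 CPM to 240 and 126 CPM, mostly through Col3a1 and Col1a1, with the stromal regulator Foxd1 at 0.0802 CPM or less in CD organoids. The sum of 6 leukocyte genes went from 6.10 and 7.66 CPM to 52.0 and 46.1 CPM, through Ptprc and Cd68, whereas C1qa and C1qb were at 0 CPM in CD organoids. Mitochondrial genes held 0.969% to 1.58% of the counts at D5 and D10, 3.10% to 3.39% at D20 and in CD organoids, and 9.64% and 9.86% in adult cells. The 4 Y-linked genes summed to 0.875 CPM or less at D5 and D10 and to 230 CPM or more at D20, in CD organoids and in adult cells, so the D10 libraries and the CD organoid libraries differed in sex makeup. The part of these differences in the results below was not tested, and in bulk RNA fewer cells of a type cannot be told apart from less RNA per cell.

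The 35 genes were expressed in every group. Per kb of annotated exon, which allows levels to be compared between genes, the group medians over the members lay between 4.45 CPM per kb in CD organoids and 6.15 CPM per kb at D5. Members of the same complex were not at the same level per kb, a measure that depends on the exon length used. Within IFT-B, Ift52 was at 16.6 to 23.4 CPM per kb in the group means and Ift80 at 3.27 to 3.95 CPM per kb, although both encode subunits of the same train. Their exon unions are 2.802 and 12.428 kb. In plain CPM the group means were closer, at 46.5 to 65.5 for Ift52 and 40.6 to 49.1 for Ift80. Within IFT-A the spread was smaller, with Wdr35 at 5.30 to 7.27 and Wdr19 at 2.98 to 5.62 CPM per kb. In the BBSome group, Arl6 was at 6.75 to 14.6 CPM per kb and the BBSome subunit gene Bbs7 at 1.25 to 2.13 CPM per kb. Dync2li1, the light intermediate chain of dynein-2, was at 12.7 to 21.7 CPM per kb, above the heavy chain gene Dync2h1 at 3.63 to 7.29 CPM per kb in all groups. In plain CPM, without a correction for length, the order of these 2 genes was the reverse.

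**Figure D1:**
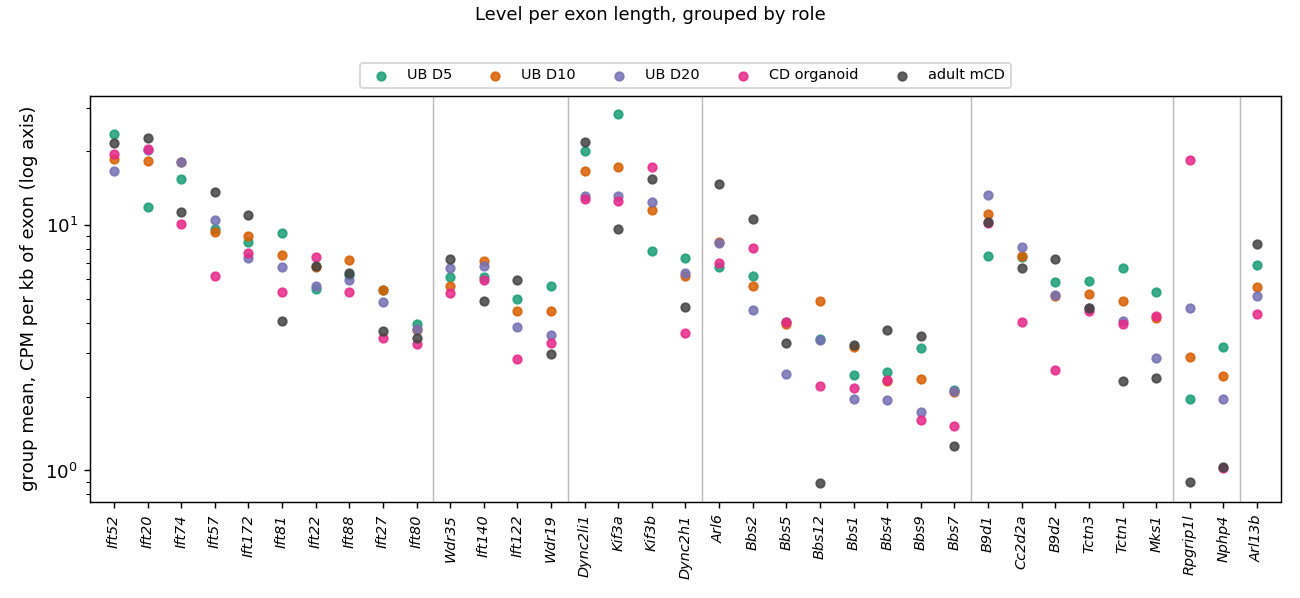
Group mean level of each member in CPM per kb of annotated exon (log axis), grouped by role and sorted within a role by the mean over 10 libraries; each point is the mean of 2 libraries. Most members stay within a narrow band over the 5 groups, whereas Rpgrip1l spans 0.898 CPM per kb in adult cells to 18.4 CPM per kb in CD organoids.

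The summed level of the 35 members moved little between groups, at 1254 ± 30.3 CPM at D5, 1190.4 ± 0.557 CPM at D10, 1127 ± 24.96 CPM at D20, 1209 ± 20.3 CPM in CD organoids and 1123.5 ± 8.38 CPM in adult cells (SD, n = 2). Much of the sum in CD organoids came from a single gene. Without Rpgrip1l it was 1225 ± 23.4 CPM at D5, 1148 ± 4.41 CPM at D10, 1059.6 ± 15.7 CPM at D20, 938 ± 5.23 CPM in CD organoids and 1110.3 ± 8.17 CPM in adult cells. Rpgrip1l made up 22.4% of the members' sum in CD organoids and between 1.17% and 5.97% in the other groups.

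**Figure D2:**
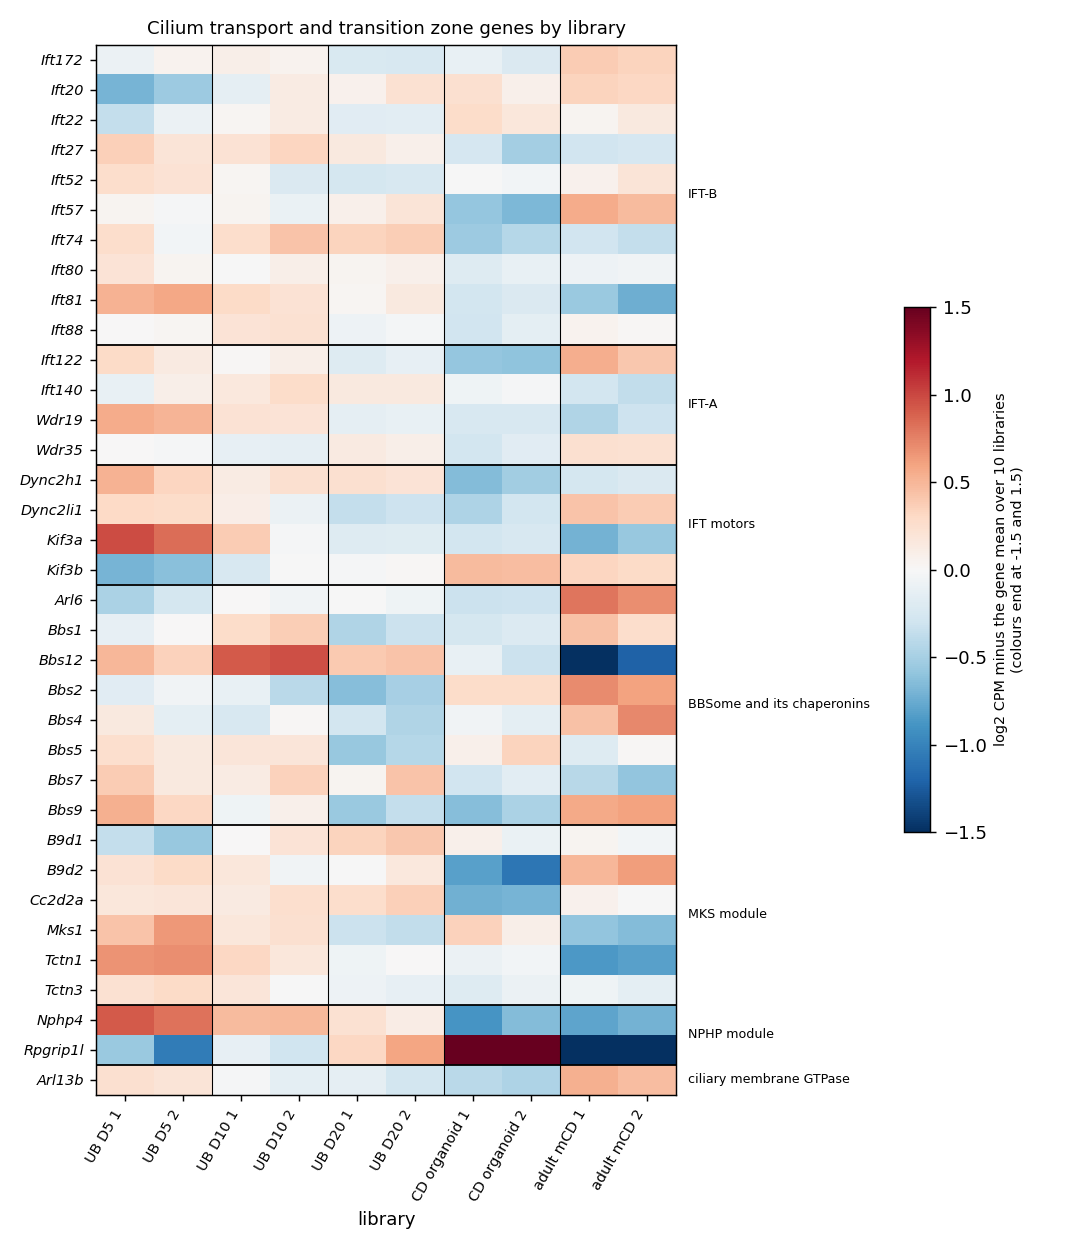
Level of the 35 members (rows, grouped by role) in the 10 libraries (columns), as log2 CPM minus the mean of the gene over all libraries; colours end at -1.5 and 1.5. Rpgrip1l is darkest red in both CD organoid libraries, where most other members are blue.

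From D10 UB to CD organoids, most members were lower and Rpgrip1l was much higher. This comparison sets the CD organoids beside UB organoids of the day at which the differentiation medium is added. The 2 groups also differ in culture time, depth and Y-linked genes, and the part of differentiation was not tested. Of the 35 members, 21 were lower (60%) and 3 were higher (8.57%) at an adjusted p of at most 0.05 in the edgeR quasi-likelihood test, against 25.2% lower and 22.1% higher of all 24410 genes tested. Among the 11178 genes at least as abundant as the least abundant member, 38.3% were lower and 34.8% higher. The median log2 fold change was -0.36 over the members, -0.15 over all genes and -0.03 over the abundant genes. Of the 21 members that were lower, 9 were beyond 1.5-fold (42.9%), whereas 76.3% of all genes that were lower exceeded this fold.

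Rpgrip1l encodes a scaffold of the transition zone that is mutated in Joubert and Meckel syndromes. It was at 33.5 and 23.7 CPM at D5, 45.2 and 39.8 CPM at D10, 60.7 and 73.8 CPM at D20, 260 and 281 CPM in CD organoids and 13.34 and 13.05 CPM in adult cells. Both CD organoid libraries lay far above all others, and the adult libraries lay below all others. The log2 fold change was 2.67 ± 0.14 (SE, adjusted p = 2.1e-09) against D10 and 2.01 ± 0.13 (adjusted p = 3.5e-08) against D20. Within the UB cultures it was also higher at D10 than at D5, by 0.57 ± 0.14 (adjusted p = 0.0056), and at D20 than at D10, by 0.66 ± 0.13 (adjusted p = 0.0023). Against adult cells it was 4.35 ± 0.16 (adjusted p = 7.2e-11), the largest fold change of any member in the 5 comparisons. The change from D5 to D10 rested on few libraries: without the second D5 library it was 0.35 and was no longer called (adjusted p = 0.059).

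Fto, which starts on the other side of the stretch printed above, went the other way. It was at 128 and 125 CPM at D5, 110 and 98.8 CPM at D10, 82.5 and 87.8 CPM at D20 and 73.5 and 66.6 CPM in CD organoids, against 88.5 and 94.9 CPM in adult cells. It fell by 0.57 ± 0.08 on the log2 scale from D10 to CD organoids (adjusted p = 4.4e-05). The genes Gm36243, Gm45428 and Gm45662, which lie within the span of Rpgrip1l, were at 1.15 CPM or less in every library. Counts were made per gene, so they do not say which of the annotated Rpgrip1l transcripts, some of them short, gave the reads.

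Of the other 7 transition zone members, 4 fell. Nphp4, a gene mutated in nephronophthisis, was at 14.6 and 14.7 CPM at D10 and 5.70 and 6.74 CPM in CD organoids, and Cc2d2a, a membrane-associated scaffold of the MKS module, at 48.8 and 53.0 CPM and 27.1 and 27.6 CPM. The libraries of the groups did not overlap for either gene. With 2 libraries a group this is a weak criterion, and its share over all genes was not computed. The log2 fold change was -1.24 ± 0.14 for Nphp4 (adjusted p = 6.5e-06) and -0.90 ± 0.08 for Cc2d2a (adjusted p = 7.3e-07). B9d2, a small B9-domain protein of the same module, was at 8.01 and 6.89 CPM at D10 and 4.06 and 3.37 CPM in CD organoids, which is a difference of -0.99 ± 0.18 (adjusted p = 0.00043) on the log2 scale. Tctn1 (-0.30) was also lower, whereas Tctn3, B9d1 and Mks1 were not called. In all, 3 of 6 MKS genes were lower, and Rpgrip1l was the sole one of these 8 genes called higher.

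Among the transport genes, the changes were between -0.83 and 0.58 on the log2 scale. Of 10 IFT-B genes 6 were lower and 0 higher, with Ift74 (-0.83), which pairs with Ift81 to bind tubulin, the lowest, followed by Ift27 (-0.64), Ift57 (-0.59), Ift81 (-0.51), Ift88 (-0.44) and Ift172 (-0.24). Ift74 was at 44.9 and 50.5 CPM at D10 and 25.8 and 27.7 CPM in CD organoids. Of the 4 IFT-A genes, Ift122 (-0.64), Wdr19 (-0.44) and Ift140 (-0.26) were lower and Wdr35 (-0.09) was not called. Both dynein-2 genes were lower, Dync2h1 by a log2 fold change of -0.77 ± 0.09 (adjusted p = 4.5e-06) and Dync2li1 by -0.38 ± 0.10 (adjusted p = 0.0065).

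In the BBSome group, 4 of 8 genes were lower and 1 was higher. Bbs12, part of the chaperonin-like complex that assembles the BBSome and sharing exon sequence with Cetn4 on the other strand (2.99 CPM or less in every library), was at 11.7 and 12.1 CPM at D10 and 5.77 and 4.97 CPM in CD organoids (log2 fold change -1.14 ± 0.19, adjusted p = 0.00016). Bbs9 (-0.56), Bbs1 (-0.55) and Bbs7 (-0.46) were the others that were lower. Bbs2, a BBSome subunit, moved the other way, from 20.5 and 16.7 CPM to 26.7 and 26.8 CPM (0.52 ± 0.12, adjusted p = 0.0022). Arl13b, which is needed for the transport of ciliary membrane proteins, was lower at -0.36 ± 0.10 (adjusted p = 0.0076).

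**Figure D3:**
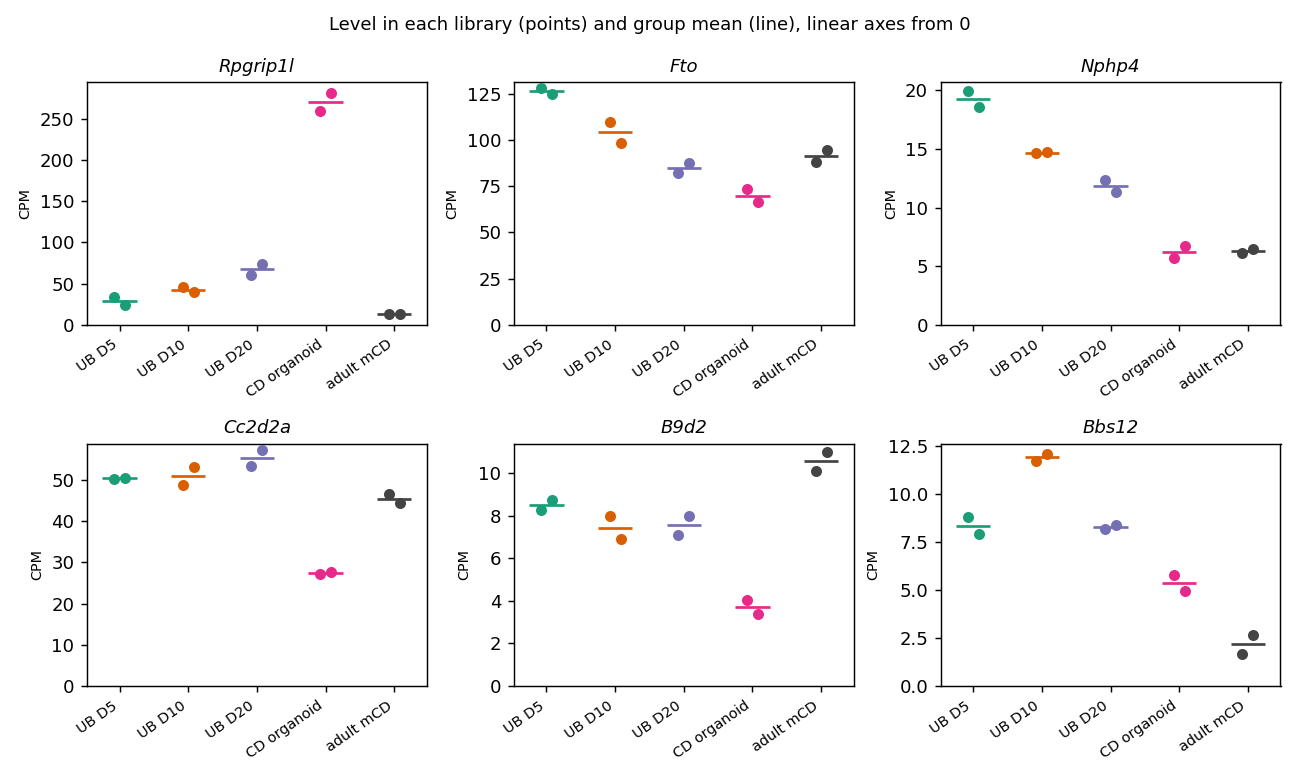
CPM in each of the 10 libraries (points, 2 a group) with the group mean (line) for Rpgrip1l, its head-to-head neighbour Fto, and the 4 members with the largest falls from D10 UB to CD organoids, on linear axes from 0. Rpgrip1l peaks in CD organoids at 260 and 281 CPM, whereas Fto, Nphp4, Cc2d2a, B9d2 and Bbs12 are lower there than at D10.

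The paired motor subunits of kinesin-II moved in opposite directions. Kif3a and Kif3b form a heterodimer that drives transport toward the ciliary tip. Kif3a was at 105 and 96.2 CPM at D5, 70.0 and 53.0 CPM at D10, 46.8 and 47.2 CPM at D20, 44.4 and 45.3 CPM in CD organoids and 32.8 and 36.2 CPM in adult cells. Kif3b was at 43.0 and 45.2, 59.3 and 69.8, 69.2 and 70.9, 96.8 and 96.6, and 87.6 and 85.4 CPM in the same order. Kif3a fell from D5 to D10 (-0.71 ± 0.11, adjusted p = 0.00022) and from D10 to D20 (-0.39 ± 0.11, adjusted p = 0.020), and Kif3b rose from D5 to D10 (0.55 ± 0.08, adjusted p = 0.00020) and was higher in CD organoids than at D10 (0.58 ± 0.08, adjusted p = 4.3e-05), where Kif3a was lower (-0.45 ± 0.11, adjusted p = 0.0047). Per kb of exon, the ratio of Kif3a to Kif3b was 3.85 and 3.34 at D5, 1.86 and 1.19 at D10, 1.06 and 1.05 at D20, 0.722 and 0.737 in CD organoids and 0.588 and 0.666 in adult cells. Its change between libraries depends on neither the scaling nor the length used, but its size, and so the place where it crosses 1, depends on the length. Kif3a has 3586 bases in the exon union and 12877 in the deposited length, whereas Kif3b has 5635 and 5644. With the deposited lengths the ratio was 1.07 and 0.933 at D5 and between 0.164 and 0.518 in all later libraries, and in plain CPM it was above 1 in both D5 libraries and 1 D10 library. The ratio is given as a description, since it was formed after the values were seen.

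**Figure D4:**
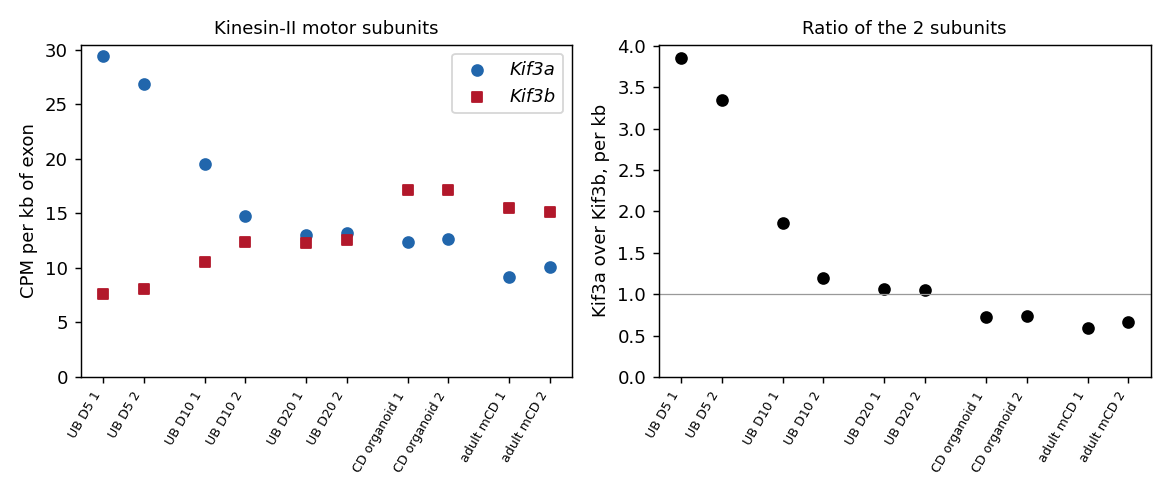
Left, Kif3a (circles) and Kif3b (squares) in CPM per kb of exon in each library; right, their ratio in each library, with a line at 1. The ratio is highest in both D5 libraries and lower in the 4 CD organoid and adult libraries than in the 6 UB libraries; where it crosses 1 depends on the gene length used.

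Within the UB cultures the members moved in both directions. From D5 to D10, 7 were higher and 10 lower, against 15.8% higher and 16.9% lower of all genes (23.3% and 29.5% of the abundant genes), and the median over members was -0.08. This split depended on the scaling: with plain library totals, which moved the median of all genes by 0.14, it was 12 higher and 2 lower, and with quantile normalization 9 higher and 7 lower. It also rested on the D5 libraries, with 5 higher and 5 lower without the first of them and 6 lower without the second. Ift20, which also serves cargo sorting at the Golgi, rose from 17.0 and 18.9 CPM to 25.2 and 30.1 CPM (0.62 ± 0.11, adjusted p = 0.00089), and B9d1 from 12.7 and 11.0 CPM to 16.4 and 18.8 CPM (0.57 ± 0.13, adjusted p = 0.0035). Tctn1, an MKS module gene that acts in hedgehog signaling, fell from 54.8 and 55.7 CPM to 42.4 and 38.5 CPM (-0.45 ± 0.08, adjusted p = 0.00079). Bbs9 (-0.41) and Nphp4 (-0.39) were also lower, but either call was lost when 1 of the libraries was left out (Bbs9 without the first D5 or the first D10 library, Nphp4 without either D5 library).

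From D10 to D20, 2 members were higher and 11 lower, against 13% higher and 16% lower of all genes (21.5% and 24.3% of the abundant genes), with a median of -0.17 over members and -0.10 over all genes. The count of falls rested on the D20 libraries, since it was 1 without the first of them and 4 without the second, and on the first D10 library, without which it was 6. The count of rises was 1 without either D20 library and 4 without the second D10 library. The BBSome group held 4 of the 11, which is 50% of its 8 genes. This is a small base, and calls within it were also lost when a library was left out, as given below. Bbs1 fell from 23.7 and 25.1 CPM to 14.3 and 15.7 CPM (-0.70 ± 0.11, adjusted p = 0.00045) and Bbs5 from 9.63 and 9.66 CPM to 5.76 and 6.35 CPM (-0.67 ± 0.16, adjusted p = 0.0066). Mks1, which names the MKS module, was at 16.5 and 17.4 CPM at D10 and 11.8 and 11.4 CPM at D20 (-0.54 ± 0.13, adjusted p = 0.0075). The call of Bbs5 was lost without the first D20 library, that of Mks1 without either D20 library and that of Bbs12 (-0.52) without any of the 4 libraries. Besides Rpgrip1l, the member called higher was Wdr35, an IFT-A gene, from 41.3 and 40.8 CPM to 49.3 and 47.9 CPM (0.24 ± 0.08, adjusted p = 0.027), a call that was lost without either D20 library.

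Against D20, which lay closer to the CD organoids in depth and in Y-linked genes, 6 members were higher (17.1%) and 12 lower (34.3%) in CD organoids. Of all genes 21% were higher and 21.3% lower (33.4% and 35% of the abundant genes). The members' share of falls was thus close to that of the abundant genes. The median was -0.17 over members and 0 over all genes. Cc2d2a fell from 53.3 and 57.2 CPM (-1.02 ± 0.08, adjusted p = 2.9e-07), B9d2 from 7.10 and 7.998 CPM (-1.01 ± 0.19, adjusted p = 0.00053), Nphp4 from 12.3 and 11.4 CPM (-0.93 ± 0.15, adjusted p = 0.00015) and Ift74 from 47.4 and 48.5 CPM (-0.84 ± 0.11, adjusted p = 2.7e-05). Bbs2 rose from 14.2 and 15.7 CPM (0.84 ± 0.12, adjusted p = 7.4e-05), and Bbs5 rose to 8.97 and 10.7 CPM (0.70 ± 0.17, adjusted p = 0.0036). Mks1 rose to 18.8 and 15.6 CPM (0.57 ± 0.14, adjusted p = 0.0040). The call of Bbs5 was lost without the second CD organoid library and that of Mks1 without the first. This comparison and the one with D10 share the CD organoid libraries, so their values are not independent.

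**Figure D5:**
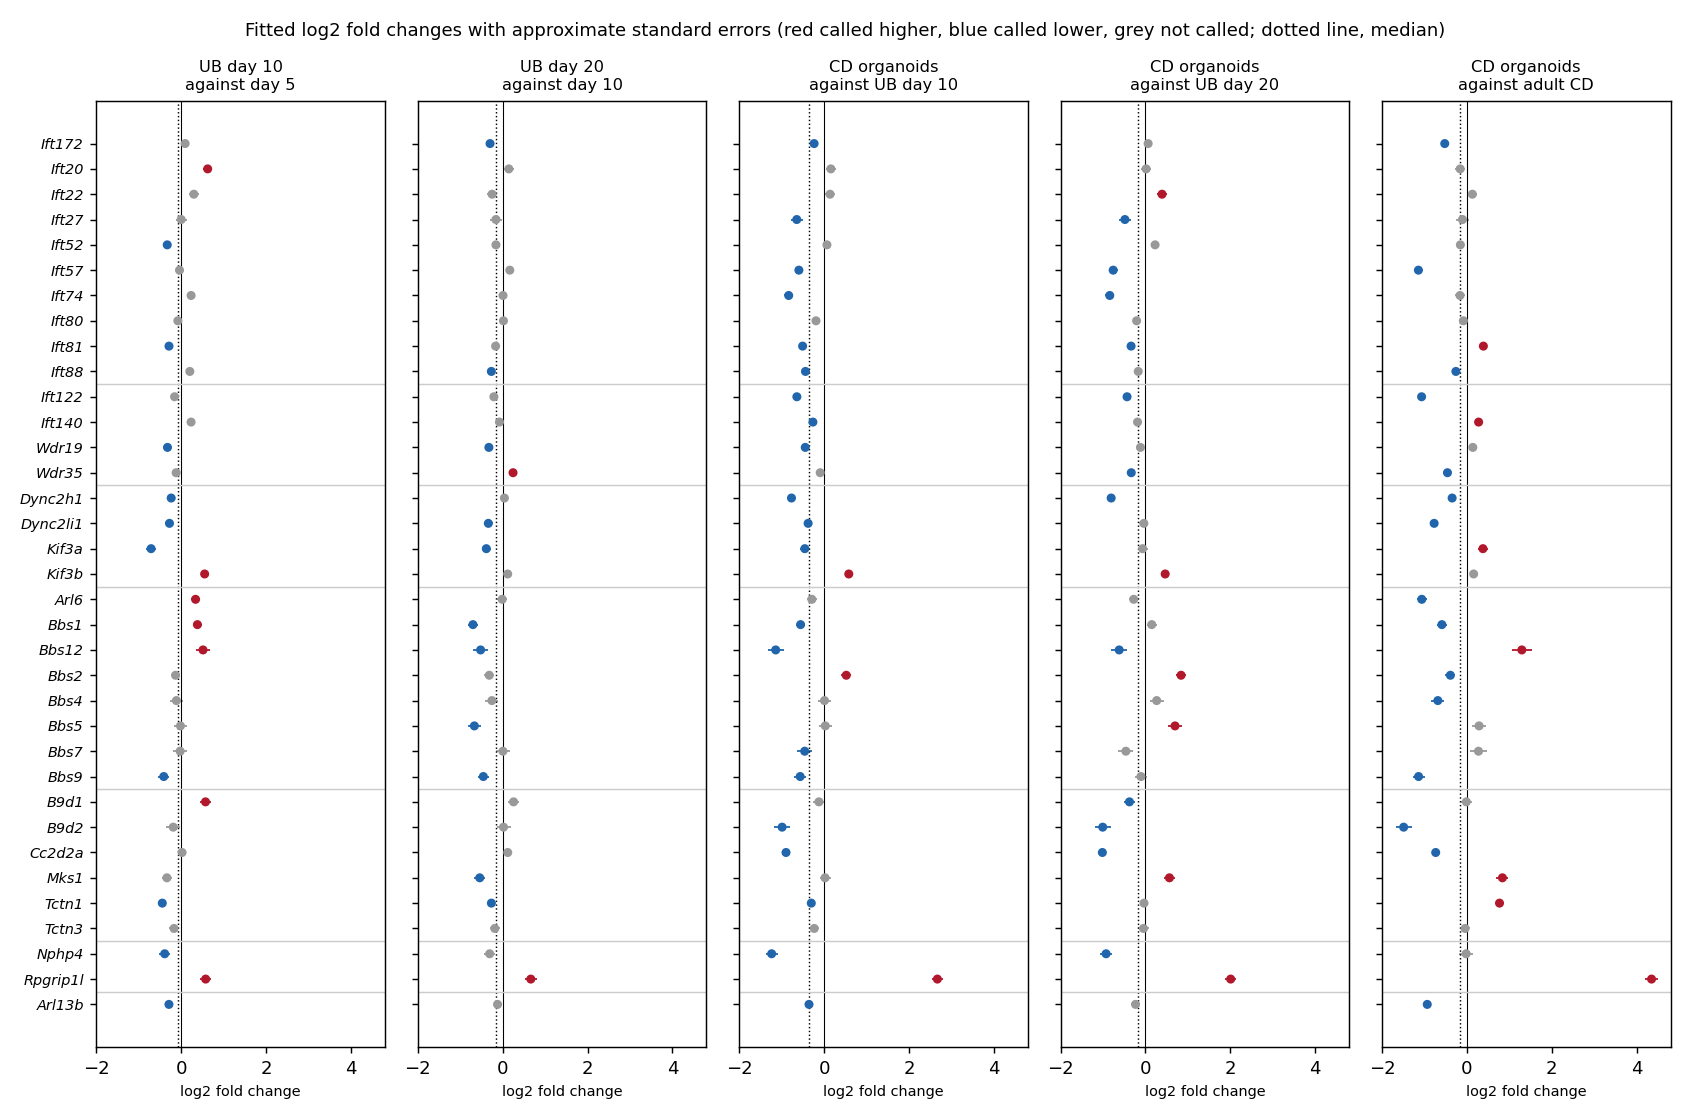
Log2 fold change (horizontal axis) of each member with its approximate SE in the 5 comparisons; red was called higher, blue lower and grey not called, and the dotted line marks the median of the members. In CD organoids against D10 UB organoids 21 members lie on the blue side and Rpgrip1l stands alone at 2.67.

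Against adult CD cells, 7 members were higher and 15 lower in CD organoids, beside 23.8% higher and 26.1% lower of all genes (36.2% and 34.7% of the abundant genes), with a median of -0.15 over members and 0 over all genes. This split also turned with the scaling: it was 16 higher and 8 lower with library totals, which moved the median of all genes by 0.34, and 14 higher and 12 lower with quantile normalization, which moved it by 0.21. The named genes below kept their calls under each of these scalings. B9d2 was at 4.06 and 3.37 CPM in CD organoids and 10.1 and 11.0 CPM in adult cells (-1.49 ± 0.19, adjusted p = 1.3e-05). Ift57 was at 18.2 and 17.1 CPM against 40.2 and 37.8 CPM (-1.14 ± 0.10, adjusted p = 5.4e-07), Bbs9 at 9.40 and 10.6 CPM against 21.8 and 22.2 CPM (-1.14 ± 0.14, adjusted p = 1.2e-05) and Ift122 at 29.7 and 29.1 CPM against 64.7 and 58.6 CPM (-1.07 ± 0.09, adjusted p = 2.7e-07). For all 4 of these genes both adult libraries lay above both CD organoid libraries. This does not set them apart, since such a separation is a weak criterion with 2 libraries a group and its share over all genes was not computed.

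Besides Rpgrip1l, 3 members stood out as higher in CD organoids. Bbs12 was at 5.77 and 4.97 CPM against 1.66 and 2.67 CPM in adult cells (1.30 ± 0.23, adjusted p = 0.00032), with Cetn4 at 0.783 and 0.802 CPM against 2.94 and 2.99 CPM. Mks1 was at 18.8 and 15.6 CPM against 9.80 and 9.43 CPM (0.84 ± 0.14, adjusted p = 0.00021). Tctn1, which shares exon sequence with Hvcn1 (16.9 and 16.4 CPM against 1.21 and 1.18 CPM), was at 32.3 and 33.3 CPM against 18.9 and 19.5 CPM (0.77 ± 0.09, adjusted p = 9.3e-06). Nphp4, which was lower in CD organoids than at D10, overlapped between CD organoids and adult cells, with 5.70 and 6.74 CPM against 6.10 and 6.44 CPM. It was not called (-0.02 ± 0.16). In motile cilium genes, which mark multiciliated cells, adult cells were higher in sum, at 62.3 and 67.2 CPM against 24.3 and 23.8 CPM in CD organoids, and their regulator Foxj1 was at 9.42 and 11.2 CPM against 2.28 and 1.76 CPM. Of 17 motile cilium genes tested, 12 were lower (70.6%) and 3 higher (17.6%) in CD organoids, beside 26.1% and 23.8% of all genes. Dnah5 was among those higher, at 2.49 and 3.45 CPM against 0.377 and 0.629 CPM. The part of multiciliated cells, and of the proximal tubule and endothelial RNA named above, in the adult levels was not tested. Ift80 and Tctn3 were the members called in none of the 5 comparisons.

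Other cilium genes were read from lists of related genes, beside the 22.1% higher and 25.2% lower of all genes (34.8% and 38.3% of the abundant genes). From D10 UB to CD organoids, 0 of 17 other transition zone and inversin genes were higher and 9 lower (52.9%), with a median of -0.50. Iqcb1 (nephrocystin-5) fell by 1.21, Rpgr, the partner of the RPGRIP1 family, by 1.21, and Ahi1 (jouberin) by 1.09 on the log2 scale. Of 16 genes of the distal appendages and basal body, which dock the centriole at the membrane, 1 was higher and 10 lower (62.5%, median -0.64), with Mphosph9 at -1.54, Cep89 at -1.25 and Ccp110 at -1.22. Ccp110 and Mphosph9 are known to hold back cilium assembly, so this list mixes genes of opposite roles. Of 20 other transport subunits 3 were higher (15%) and 8 lower (40%, median -0.24), a share of falls close to that of the abundant genes, and Ttc30b, an IFT-B gene, rose from 5.27 and 5.36 CPM to 20.4 and 17.8 CPM (1.83). Against D10, the counts of these 3 lists kept more falls than rises under all 4 scalings. Against D20 the lists differed, beside 21% higher and 21.3% lower of all genes (33.4% and 35% of the abundant genes). Of the other transport subunits, 4 were then higher (20%) and 2 lower (10%). Of the other transition zone and inversin genes, 1 was higher and 6 lower (35.3%), a share close to that of the abundant genes. Of the distal appendage and basal body genes, 1 was higher and 10 lower (62.5%).

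Genes that act on or through the cilium were read in the same way. Of 10 cilium disassembly genes 7 were lower (70%) and 2 higher (20%), with a median of -2.13, and with Plk1 at -3.23 and Aurka at -3.08, both mitotic kinases that also belong to the cell cycle, of which 12 of 12 listed genes were lower. Nedd9, the scaffold that activates Aurka, went the other way, from 68.2 and 60.9 CPM to 224 and 217 CPM (1.77). Of 14 genes of the ciliary membrane and its cargo 3 were higher (21.4%) and 5 lower (35.7%), with a median of -0.08, and both shares were near those of all or of the abundant genes. Pkhd1, the gene of autosomal recessive polycystic kidney disease, rose from 145 and 119 CPM to 354 and 336 CPM (1.39), Pkd2 was not called (-0.05), and the ciliary adenylyl cyclase Adcy3 fell from 22.7 and 19.1 CPM to 2.78 and 2.33 CPM. In the UB cultures Adcy3 was already at 6.31 and 6.48 CPM at D20. Of 15 hedgehog pathway genes, whose signal passes through the cilium, 1 was higher and 10 lower (66.7%, median -1.09). Gli3 fell from 70.2 and 61.8 CPM to 1.92 and 2.09 CPM (-5.01) and Shh rose from 12.4 and 9.77 CPM to 24.9 and 21.2 CPM (1.05). At D20, Gli3 was at 27.9 and 29.7 CPM, and Shh was lower than at D10 (-4.23).

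Among the transcription factors of ciliary genes, 3 of 9 tested were lower and 3 higher (33.3% each, near the shares of the abundant genes), a split that was 1 higher and 5 lower with library totals. Rfx3 fell from 46.3 and 42.7 CPM to 21.4 and 22.1 CPM (-1.03) and was already lower at D10 than at D5 (-0.79). Rfx7 fell from 121 and 133 CPM to 65.6 and 67.6 CPM (-0.93), and Rfx2 from 6.54 and 10.2 CPM to 6.34 and 4.41 CPM (-0.63). Foxj1 was called higher (0.73) at levels of 2.28 CPM or less in all organoids.

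Stricter rules left few members. With a change over 4-fold required and the adjusted p limit set to 0.01, Rpgrip1l was called higher in CD organoids against D10, D20 and adult cells (4.96%, 4.74% and 4.5% of all genes were higher), and no member was lower in these comparisons (5.71%, 4.73% and 9.84% of all genes). Against D20 Rpgrip1l lay just past the limit, at 4.02-fold, and its log2 fold change was below 2 under several alternatives, as low as 1.87 without the first D20 library and 1.94 without the second CD organoid library. No member was called by this rule in the UB cultures, from D5 to D10 (2.34% higher and 1.07% lower of all genes) or from D10 to D20 (1.66% and 1.73%). With a change over 1.5-fold required and the limit kept at 0.05, 1 member was higher and 1 lower from D5 to D10 (10.6% and 8.87% of all genes), and 1 and 2 from D10 to D20 (7.55% and 9.77%). In CD organoids 1 was higher and 9 lower against D10 (16.7% and 19.2%), 3 and 7 against D20 (15.6% and 15.4%), and 4 and 10 against adult cells (17.3% and 21.5%).

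The 4 genes set aside by their type in the table included an exception to the fall of most members from D10 UB to CD organoids. Ift46, an IFT-B gene that links the outer arm dyneins to the train, was at 45.6 and 42.9 CPM at D10, 45.2 and 51.6 CPM at D20, 98.2 and 95.6 CPM in CD organoids and 47.1 and 46.2 CPM in adult cells. Its log2 fold change was 1.13 ± 0.10 against D10 (adjusted p = 3.5e-07), 1.00 ± 0.10 against D20 (adjusted p = 1.6e-06) and 1.05 ± 0.10 against adult cells (adjusted p = 9.1e-07). Ift43, of IFT-A, was also higher than at D10 (0.35 ± 0.11, adjusted p = 0.021), and Bbs10 (-0.84) and Tctn2 (-0.55) were lower. Adding these 4 genes made the counts against D10 5 higher and 23 lower of 39, an alternative chosen after the data were seen.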

How the data were processed

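RNA-seq libraries of 5 groups, with 2 libraries each, were analysed from a single deposited table. The table holds whole-number counts per gene, which the authors obtained, according to the study methods, in Partek Flow by trimming, STAR alignment and an E/M model on GENCODE genes. The submitters' processing notes instead list FastQC 0.11.8, cutadapt 2.5, Trimmomatic 0.36, STAR and edgeR 3.28.1, and the kits named in the labels and the methods differ as well. Whether counting used strand is not given in the sources used here. The deposited RPKM values, which the authors computed with a gene length that sums the exons of all transcripts, were used only to check the columns. A further block of columns deposited by the authors holds TMM-scaled counts (a signal) and entered no test.

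Tests used R 4.3.3 and edgeR 4.0.16 (quasi-likelihood, TMM scaling, prior count 1), in one fit of 5 group means over 10 libraries. The 24410 genes with at least 10 counts in all were tested, and a gene was called at a Benjamini-Hochberg adjusted p of at most 0.05 over all of them. SEs are approximate, from the fold change and the F statistic. The procedure was tested on simulated data. Alternatives used limma 3.58.1 and DESeq2 1.42.0. Levels per kb use the union of GENCODE M21 exons on GRCm38. Tables and plots were made with Python 3.11.15, numpy 2.4.6, pandas 2.3.3 and matplotlib 3.10.9. Total counts were 11913613 to 24536676 a library, and 3 counts corresponded to 0.122 to 0.252 CPM, which covers counting error only.

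The members and gene lists were chosen with earlier results of these data known. The choice by name also found 1 further protein_coding gene and 1 of another type that are not reported here and entered no count, sum or median of the members. Values in every library are given for up to 4 members per comparison and direction with the largest change among those called, and for related lists for up to 3 genes. The rule also named the highest and lowest member of each role by RPKM, for which the level per kb was used because the deposited lengths differ from the exon union, by up to 3.59 times among the members.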

Additional observations from a re-analysis of the deposited data

How the results depend on the processing

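Over the 37 fold changes of named members, each computed under 13 alternatives (481 values), 452 kept direction and call, 29 lost the call and 0 changed direction. All of those for CD organoids against D10 and against adult cells kept their calls. With library totals the counts of higher and lower members were 12 and 2 (median 0.064) for D10 against D5, 16 and 8 (median 0.24) for CD organoids against adult cells, and the medians were -0.45 against D10 and -0.23 against D20, and 1 member was higher at D20 than at D10. Quantile normalization gave 14 higher against adult cells (median 0.012) and medians of -0.28 against D10 and -0.11 against D20. DESeq2 size factors and the DESeq2 test both gave medians of -0.30 against D10, -0.20 against adult cells and -0.13 for D20 against D10, and the test gave 5 lower at D10 against D5 and 6 lower at D20 against D10. Without a count filter 1 member was higher at D20 than at D10, and the medians were -0.39 against D10 and -0.21 against D20, while filterByExpr gave a median of -0.13 for D20 against D10. With only the groups compared in the fit, 4 were higher and 3 lower at D10, 5 were lower at D20 (median -0.11), and the median against D10 was -0.31. A fold of more than 4 with an adjusted p of at most 0.01 left 0 members in every comparison and direction, except 1 higher, Rpgrip1l, in each CD organoid comparison, where the fold against D20 (4.02) fell below 4 under several alternatives. A fold of more than 1.5 left 1 higher and 1 lower at D10 against D5, 1 and 2 at D20 against D10, and in CD organoids 1 and 9 against D10, 3 and 7 against D20, and 4 higher against adult cells. With the 4 same-named genes, added after the data were seen, 5 were higher against D10 and the median against D20 was -0.12. The cause of these shifts was not tested, except that a fold threshold or fewer libraries leave fewer calls by construction.

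Leaving out each library in turn gave, for D10 against D5, 5 to 9 higher and 5 to 8 lower (median -0.13 to 0.015), for D20 against D10, 1 to 4 higher and 1 to 10 lower (median -0.17 to -0.11), and for CD organoids, 3 to 4 higher and 16 to 19 lower against D10 (median -0.35 to -0.27), 4 to 5 higher and 9 to 10 lower against D20 (median -0.21 to -0.11) and 5 to 6 higher and 12 to 14 lower against adult cells (median -0.16 to -0.093). The lone library of a group was then assumed to vary like the other groups.

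The replicate numbers in the labels are shared by all groups, but no label ties them to a litter or batch, and the deviations of same-numbered libraries correlated between -0.129 and 0.0871 in the 5 comparisons. With the replicate block, 20 members were lower in CD organoids against D10, the counts of the other comparisons were 7 and 10, 2 and 11, 6 and 12, and 7 and 15, and no named call was lost.

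The precision rests on 2 libraries a group, and the D20, CD organoid and adult libraries had fewer counts than those of D5 and D10.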
